A study of Mus musculus with 26 samples.

Results

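Collagens are the main structural proteins of the extracellular matrix, each built from 3 chains wound into a triple helix. Fibrillar collagens assemble into the banded fibrils of connective tissue, and basement membrane (type IV) collagens form the sheet-like network under epithelia. The other types decorate or anchor these structures or sit in the cell membrane. In the testis, peritubular myoid cells and Sertoli cells lay down the basement membrane of the seminiferous tubule, while fibroblasts between the tubules make fibrils. Early embryonic cells make type IV collagen and laminin as part of the first basement membranes. The collagen genes were taken by symbol (Col, a number, the letter a and a number), and 44 of the 54589 genes listed over the 3 deposited tables qualified. They were split into 11 fibrillar genes, 6 basement membrane genes (Col4a1 to Col4a6) and 27 others.

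The data were RNA-seq libraries from 26 mouse samples, collected to follow Tex10, a nuclear protein, in primordial germ cell specification in culture and in spermatogenesis. Cells of strain 129Sv/J, called degron cells here because Tex10 was depleted in them with dTAG13, were sampled as untreated epiblast-like cells (EpiLCs) and as primordial germ cell-like cells (PGCLCs) made from them. The PGCLCs were taken at day 2 and day 4 with the solvent DMSO or with 500 nM dTAG13, a small molecule that brings a suitably tagged protein to the degradation machinery, with n = 2 in each of these 5 groups. Untreated 129Sv/J lines carrying an empty vector (1 line) or overexpressing Tex10 (2 clones) were sampled as EpiLCs and at days 2, 4 and 6, with 1 library per line and stage. Testis cells of untreated C57BL/6N mice came from 2 wildtype and 2 Tex10 conditional knockout (cKO) samples. The Cre driver, the age of the mice and the make of the degron cells are not given in the sources used here. Whether replicates came from separate cultures or animals is not given either, except that the overexpression clones are separate lines, so the p-values measure the spread between these samples. The vector libraries were made with another kit than the degron and testis libraries, per the labels.

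Col4a1 and Col4a2, whose chains form the most widespread type IV collagen, carry much of what follows, and they lie on opposite strands of mouse chromosome 8 with start sites close together. The windows below (RefSeq, GRCm38.p6, 250 bases before to 50 bases after each start site) are shown because both genes were called in the same direction with dTAG13, in the overexpression clones and in testis. Each is read along its own gene, with matches in capitals to CCAAT and GGGCGG, each searched on both strands, and to TATAAA, of which there was none. Matches on the opposite strand appear as their reverse complements. The windows lie at chr8:11312777-11313076 (Col4a1, minus strand) and chr8:11312555-11312854 (Col4a2, plus strand).
Col4a1: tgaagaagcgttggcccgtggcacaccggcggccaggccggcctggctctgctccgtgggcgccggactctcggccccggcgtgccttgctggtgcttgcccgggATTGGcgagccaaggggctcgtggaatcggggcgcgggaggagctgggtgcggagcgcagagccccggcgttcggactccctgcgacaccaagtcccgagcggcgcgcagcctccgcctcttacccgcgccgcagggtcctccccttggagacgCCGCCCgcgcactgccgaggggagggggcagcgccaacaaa
Col4a2: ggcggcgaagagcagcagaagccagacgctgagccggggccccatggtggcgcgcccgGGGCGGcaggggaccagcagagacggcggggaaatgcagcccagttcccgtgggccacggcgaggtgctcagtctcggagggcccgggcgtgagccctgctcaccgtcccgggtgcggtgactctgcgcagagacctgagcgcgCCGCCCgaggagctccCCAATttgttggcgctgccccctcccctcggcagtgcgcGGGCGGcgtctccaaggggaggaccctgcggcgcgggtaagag
The start sites lie 21 bases apart, so that the 5′ ends of the transcripts overlap, and the windows share 78 bases. They are 74% and 73.7% G and C. Both hold the same GGGCGG match at chr8:11312812-11312817, and Col4a2 holds a CCAAT match at chr8:11312773-11312777, which shares 1 base with the edge of the Col4a1 window. GGGCGG occurred in 23 of 38 collagen windows (60.5%, over 35 collagen genes with an entry) and in 35.7% of all 32851 promoter windows. CCAAT occurred in 34.2% and 37.4%, and TATAAA in 13.2% and 13.6%. A match is a description of these letters and was not tested as a binding site.

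Values are CPM, with the library size scaled by TMM (trimmed mean of M values), called TMM-scaled CPM below. Libraries held between 5055362 and 8564563 reads in the table, of which 946 to 5856 fell on collagens. A floor of 3 reads corresponded to values of 0.299 to 0.56 and covers counting error only. Tests were run with limma on log2(value + 1) over genes with a mean of at least 1, fold changes are on that scale and understate low genes, and a gene was called at a Benjamini-Hochberg adjusted p under 0.05 over all genes tested. Same-group libraries differed by more than counting error, with a chi-square per gene of 1.81 to 13.6, where day 4 DMSO had the highest. That pair stood apart: at 5e+06 reads, day 4 DMSO replicate 2 showed 26371 genes and replicate 1 22563. EpiLC markers (Fgf5, Pou3f1, Otx2 and Dnmt3b) summed to 1230 and 1457 in EpiLCs of the degron cells and to 75.0 to 174 at later stages. Germ cell markers (Prdm1 and 5 others) summed to 41.5 and 47.2 in EpiLCs and to 157 to 237 at the later stages. Tex10 RNA was 99.0 ± 7.02 (SD, n = 2) with dTAG13 and 109.5 ± 4.87 with DMSO at day 2 (log2 fold change -0.14, adjusted p = 0.322). At day 4 it was 74.8 ± 2.87 and 107 ± 3.39 (-0.51, adjusted p = 0.000576). The RNA does not measure loss of the protein, which was not assayed in these files. In the clones Tex10 was higher than in the empty-vector line at each stage (1.47, adjusted p = 2.14e-11). In testis it was 29.8 and 27.3 in cKO against 79.1 and 44.1 in wildtype (-1.02, adjusted p = 0.00318).

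Of the 44 collagens, 22 reached the mean of 1 in the degron cells (8 fibrillar, Col4a1 and Col4a2, and 12 others). In the vector lines 16 did (6 fibrillar, Col4a1 and Col4a2, and 8 others). Col1a2, Col3a1 and Col24a1 of the fibrillar group and Col4a3 to Col4a6 were under it in both. No single library put an untested collagen above 2.41 in the degron cells (Col16a1) or 2.85 in the vector lines (Col6a6). The tables of the cells listed every collagen, while the testis table listed 38, of which 37 were tested and Col8a2 was not. Col5a2, Col5a3, Col24a1, Col9a2, Col10a1 and Col13a1 were not analysed here in testis.

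Collagen expression in the cultured cells was dominated by Col18a1. It encodes type XVIII collagen, a basement membrane proteoglycan core whose end fragment is endostatin. Per kilobase of exon, it stood at 82.1 TMM-scaled CPM in degron EpiLCs (80.3 and 84.0) and at 57.5 in empty-vector EpiLCs. The next collagen, Col6a5, stood at 1.82 per kilobase in degron EpiLCs, and Col8a2 stood at 4.05 in empty-vector EpiLCs. Col18a1 made up 70.4% to 90.9% of the summed collagen value in degron libraries and 54.0% to 86.3% in vector libraries. In testis it made up 1.33% to 4.92%. There Col9a3, a chain of cartilage type IX collagen, had the highest value per kilobase, 17.9 in wildtype and 16.1 in cKO. Exons of Col9a3 overlap those of Tcfl5 on the opposite strand, and since the counting is not stated to use strand, reads of these genes cannot be told apart. Col16a1 (5.63 per kilobase in wildtype), Col20a1 (4.36) and Col6a4 (4.14) followed. Exons of Col6a4 overlap those of Gm36993 and Gm47575 on the opposite strand, and exons of Col20a1 overlap those of BX649560.1 on the same strand. Reads in these stretches cannot be told apart either.

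With dTAG13, most collagens that were called were higher than with DMSO, on both days. At day 2, 13 of 22 tested collagens were called, 12 higher and 1 lower, against 33.6% of all tested genes (13.7% higher and 19.9% lower). At day 4, 13 of 22 were called, 11 higher and 2 lower, against 41.8% of all genes (15.8% higher and 26% lower). The median log2 fold change of the tested collagens was 0.65 at day 2 and 0.79 at day 4, and that of all tested genes was -0.09 and -0.13. Col1a1 and Col22a1 passed the mean of 1 only through the dTAG13 libraries: over the 6 DMSO and EpiLC libraries their means were 0.734 and 0.779, against 3.31 and 4.16 with dTAG13. Col17a1, which was not called, passed only through the DMSO libraries (1.80, against 0.930 over the other 6). Without these 3 genes, 11 of 19 tested collagens were called at day 2 (10 higher, median 0.58) and 11 of 19 at day 4 (9 higher, median 0.695). Of these, 10 collagens were called on both days, each in the same direction. The share of all genes called on both days is not given, so this describes these 10 genes only. Under median-ratio scaling the median of all genes was -0.01 and -0.03, the higher share of all called genes went from 40.7% to 52% at day 2 while at day 4 it went from 37.8% to 49.1%, and 13 and 14 collagens were called. Summed over all collagens but Col18a1, the value was 70.2 and 73.3 with DMSO and 159 and 171 with dTAG13 at day 2. At day 4 it was 65.4 and 73.7 with DMSO and 159 and 162 with dTAG13, so the groups did not overlap on either day.

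**Figure D1:**
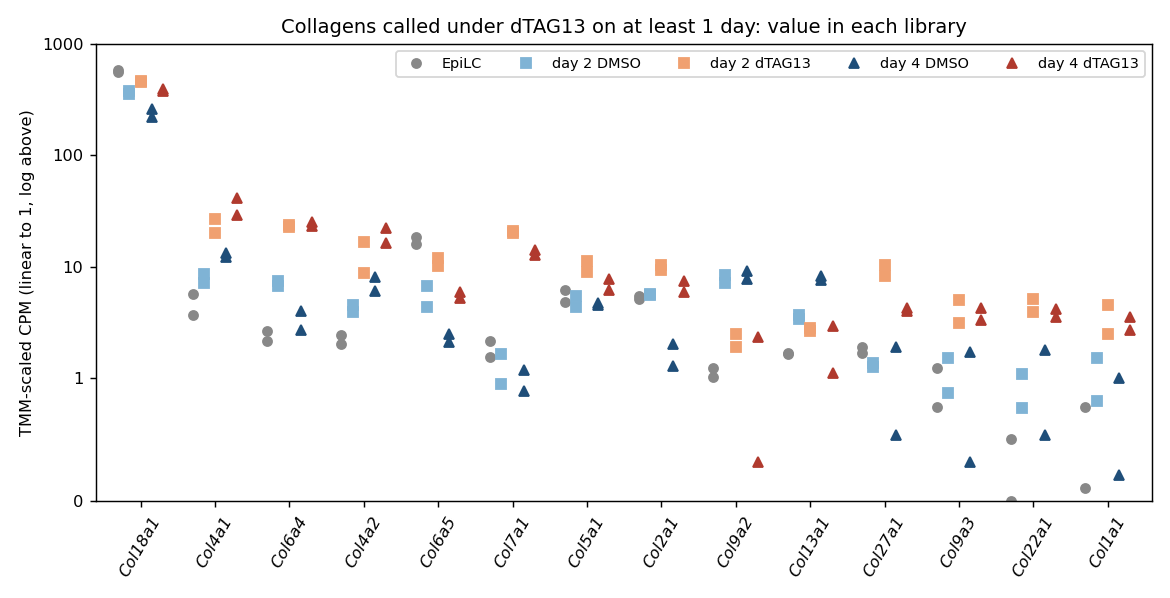
Value of the 14 collagens called on at least 1 day in each of the 10 degron libraries (TMM-scaled CPM, linear to 1 and log above; 1 point per library, genes ordered by mean). The dTAG13 libraries lie above the DMSO libraries of their day for 12 of these genes and below them for Col9a2 and Col13a1. The genes are shown because they were called between these same libraries. How many of all genes separate in this way is not given, so this is a description. The 12 include Col1a1 and Col22a1, which passed the filter only through the dTAG13 libraries and are shown as a description.

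The fold changes were largest for Col7a1, which encodes the anchoring fibrils that tie epithelial basement membranes to the tissue below. Col7a1 was at 1.64 and 0.950 in day 2 DMSO and at 20.05 and 20.7 in day 2 dTAG13. At day 4 it was at 1.18 and 0.896 in DMSO and at 14.1 and 12.7 in dTAG13. Every dTAG13 library was thus far above every DMSO library and above the EpiLCs (2.15 and 1.55), and the log2 difference was 3.24 ± 0.27 (SE) at day 2 and 2.82 ± 0.27 at day 4 (limma adjusted p = 1.1e-08 and 3.54e-08). In the vector lines Col7a1 did not pass the filter, with values of 0 to 1.51.

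Col6a4, a chain of the beaded filaments of type VI collagen, had values of 7.42 and 6.65 in day 2 DMSO and of 22.8 and 23.7 in day 2 dTAG13. At day 4 the values were 3.97 and 2.69 against 25.2 and 23.0, where Gm36993 and Gm47575 overlap Col6a4 on the other strand. The dTAG13 libraries had about the same level on both days while the DMSO libraries were lower at day 4, and the log2 difference was 1.60 ± 0.23 and 2.55 ± 0.23 (limma adjusted p = 1.77e-05 and 1.48e-08). Its neighbour Col6a5, another type VI chain, was at 6.67 and 4.34 in DMSO and at 11.8 and 10.2 in dTAG13 at day 2. At day 4 Col6a5 was at 2.47 and 2.09 against 5.87 and 5.24 (0.90 and 1.00, limma adjusted p = 0.00816 and 0.00285). The day 2 call of Col6a5 was lost without DMSO replicate 2 (0.64, adjusted p = 0.131) or dTAG13 replicate 1 (0.80, adjusted p = 0.0646). The 29 and 26 other tested genes within 1000000 bases of Col6a4 and Col6a5 had medians of -0.34 and -0.37 at day 2. At day 4 both medians were -0.48, and the part of these genes was not tested. The chains of the canonical type VI heterotrimer, Col6a1, Col6a2 and Col6a3, did not pass the filter, and no library had them above 1.87.

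The basement membrane pair Col4a1 and Col4a2 rose by similar amounts. Col4a1 was at 7.17 and 8.55 in day 2 DMSO and at 19.9 and 26.6 in day 2 dTAG13. At day 4 it was at 13.3 and 12.05 in DMSO and at 28.7 and 41 in dTAG13, its highest level in the degron cells. The log2 difference was 1.44 ± 0.23 and 1.37 ± 0.23 (limma adjusted p = 4.69e-05 and 5.16e-05). Col4a2 was at 3.90 and 4.48 against 8.70 and 16.6 at day 2 and at 8.06 and 6.07 against 16.3 and 22.1 at day 4. The 4 dTAG13 values of Col4a2 did not overlap the 4 DMSO values, with a log2 difference of 1.33 ± 0.28 and 1.32 ± 0.28 (limma adjusted p = 0.000861 and 0.00066). The 9 other tested genes within 1000000 bases of the pair had a median of -0.18 at day 2 and -0.03 at day 4. Col4a3 to Col4a6, the chains of more specialised basement membranes, stayed at or below 1.24 in each degron library.

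Leaving Col1a1 aside, 3 of 7 tested fibrillar collagens rose at day 2 (42.9%, against 33.6% of all genes called) and 2 of 7 at day 4 (28.6%, against 41.8%), and none was called lower. The day 4 share was thus below that of all genes called in either direction. Of all genes, 13.7% were called higher at day 2 and 15.8% at day 4. Col27a1, a fibrillar chain known from cartilage, was at 1.26 and 1.36 in day 2 DMSO and at 10.4 and 8.16 in day 2 dTAG13. At day 4 its values were 0.537 and 1.89 against 4.25 and 3.97, so that the groups did not overlap on either day (2.15 ± 0.32 and 1.28 ± 0.32, limma adjusted p = 1.94e-05 and 0.00249). Without day 4 DMSO replicate 1 the day 4 value of Col27a1 was 0.82 and not called (adjusted p = 0.0735). Col2a1, the cartilage fibril collagen that embryonic epithelia also make, was at 5.66 and 5.56 against 9.32 and 10.3 at day 2. Its DMSO level was lower at day 4 (1.29 and 1.99) than the dTAG13 level (7.33 and 5.88), with log2 fold changes of 0.71 and 1.53 (limma adjusted p = 0.0401 and 6.18e-05). The day 2 call of Col2a1 was lost in 7 of 11 alternatives, among them the loss of any 1 of the 4 day 2 libraries (0.64 to 0.77, adjusted p up to 0.157). Col1a1, the main chain of type I collagen, stayed low throughout, at 1.51 and 0.814 against 2.49 and 4.55 at day 2 and at 0.215 and 0.996 against 3.52 and 2.70 at day 4. Since Col1a1 passed the filter only through the dTAG13 libraries, these values are a description and no test of it is given. Its partner chain Col1a2 was at or below 1.03 in every degron library and was not tested. Col5a1, which starts fibril assembly, rose at day 2 (4.88 ± 0.75 to 10.1 ± 1.57, limma adjusted p = 0.00786) and was at 4.51 and 4.68 against 7.77 and 6.20 at day 4 (0.51, adjusted p = 0.118). Without day 2 DMSO replicate 2 or dTAG13 replicate 2 the Col5a1 call was lost (0.79 and 0.78, adjusted p = 0.0765 and 0.0776). Col5a2, Col5a3, Col11a1 and Col11a2 were not called on either day, with fold changes between -0.07 and 0.88.

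Among the remaining collagens, Col9a3 and Col18a1 also rose on both days and Col9a2 fell on both. Col22a1, found at tissue junctions, was at 0.755 and 1.09 against 5.13 and 3.88 at day 2 and at 0.537 and 1.79 against 3.52 and 4.13 at day 4. It too passed the filter only through the dTAG13 libraries, so no test of it is given. Col9a3 was at 0.880 and 1.49 against 4.97 and 3.08 and at 0.322 and 1.69 against 4.25 and 3.34 (1.19 and 1.34, limma adjusted p = 0.0124 and 0.00413), where Tcfl5 overlaps it on the other strand. The Col9a3 call was lost at day 4 without DMSO replicate 1 (0.83, adjusted p = 0.11) and at day 2 without DMSO replicate 1 (0.99, adjusted p = 0.114) or dTAG13 replicate 1 (0.91, adjusted p = 0.125). Col18a1, the most abundant member, was at 377 and 354 against 467 and 456 at day 2 and at 220 and 261 against 392.3 and 378 at day 4. The Col18a1 change was small in log2 terms (0.33 ± 0.10 and 0.68 ± 0.10, limma adjusted p = 0.0149 and 1.36e-05) but the groups did not overlap. At day 2 this call was lost in 5 of 11 alternatives (adjusted p up to 0.117), including without DMSO replicate 2 (0.29) or either dTAG13 replicate (0.32 and 0.35). Col9a2, which encodes a chain of the same type IX collagen as Col9a3, moved the other way. It was at 8.43 and 7.06 in DMSO and at 2.49 and 1.87 in dTAG13 at day 2 and at 9.02 and 7.77 against 2.35 and 0.318 at day 4. All 4 dTAG13 values lay below all 4 DMSO values, with log2 fold changes of -1.46 ± 0.35 and -2.16 ± 0.35 (limma adjusted p = 0.00258 and 3.47e-05). Col13a1, a transmembrane collagen, was at 3.65 and 3.39 against 2.64 and 2.81 at day 2 (not called, adjusted p = 0.52) and fell from 7.63 and 8.26 to 2.93 and 1.11 at day 4 (-1.63 ± 0.31, limma adjusted p = 0.000187).

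**Figure D2:**
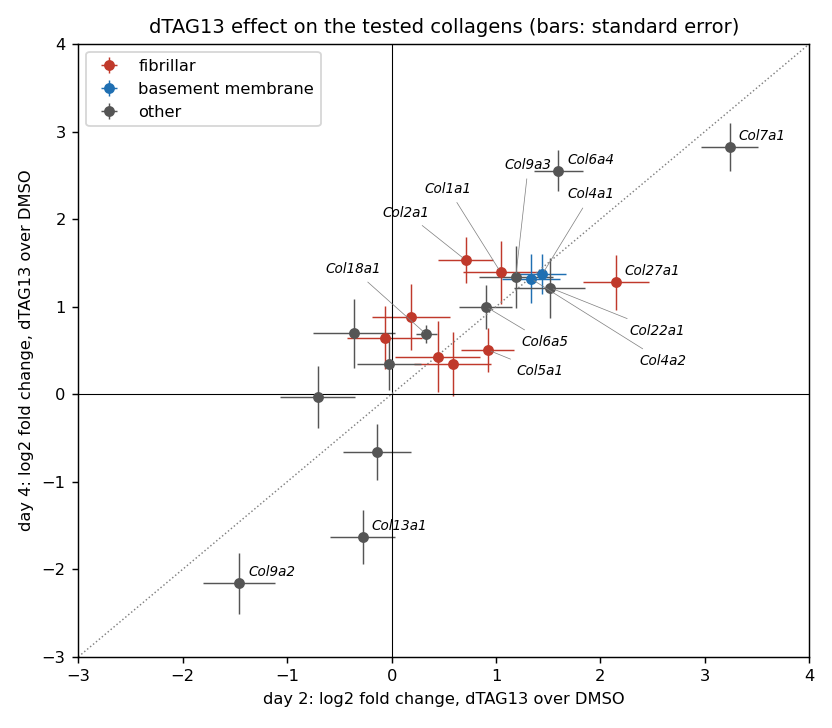
Log2 fold change (dTAG13 over DMSO, on log2(value + 1)) at day 2 and at day 4 for the 22 tested collagens, with standard errors and names for those called on at least 1 day; the dotted line marks equal effects. Col7a1 lies farthest to the upper right (3.24 and 2.82) and Col9a2 farthest to the lower left (-1.46 and -2.16). Col1a1 and Col22a1 passed the filter only through the dTAG13 libraries, and Col17a1 only through the DMSO libraries.

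A test of the difference between the days called 0 of 22 collagens by limma, where 1.25% of all tested genes were called (0.771% up and 0.482% down), and edgeR called 0. At an unadjusted p under 0.05 there were 4: Col6a4 and Col2a1 had larger and Col18a1 a slightly larger effect at day 4, and Col13a1 a lower one. The difference for Col6a4 was 0.96 (95% interval 0.27 to 1.64, adjusted p = 0.197) and that for Col13a1 was -1.35 (-2.26 to -0.45, adjusted p = 0.152). Without day 4 DMSO replicate 2, or without day 4 dTAG13 replicate 1, 1 collagen was called. A call on 1 day alone therefore does not show that the days differed. In all settings tried, 6 collagens that did not depend on dTAG13 to pass the filter stayed called at day 2 (Col4a1, Col4a2, Col6a4, Col7a1, Col9a2 and Col27a1) and 7 at day 4 (Col2a1, Col4a1, Col4a2, Col6a4, Col7a1, Col9a2 and Col13a1). Without day 2 DMSO replicate 2, 8 were called at day 2. At day 4, where the DMSO pair stood apart, 9 were called without DMSO replicate 1 and 13 without DMSO replicate 2. These counts are over all 22 tested collagens and so include Col1a1 and Col22a1. Leaving Col1a1 and Col22a1 aside, the calls lost without replicate 1 were those of Col9a3 and Col27a1. In the authors' deposited table, 11 collagens were higher and 2 lower at day 2, and 10 were higher and 2 lower at day 4, at an FDR under 0.05. Those counts are over all 44 collagens, and the genes are in part different ones. At day 2 they include Col4a5, Col15a1, Col16a1 and Col26a1, which were not tested here, and lack Col1a1, Col2a1, Col9a3 and Col18a1. At day 4 they include Col16a1 and lack Col18a1 and Col22a1.

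Some measures of the libraries moved with dTAG13 as well. At a common 5e+06 reads, 26042 to 28481 genes were detected in dTAG13 libraries and 22563 to 26371 in DMSO libraries. Genes under the filter made up 0.603% to 0.713% of the summed value with dTAG13 and 0.307% to 0.489% with DMSO. Contractile genes used as peritubular myoid markers (8 genes, all detected) summed to 74.3 to 150 with dTAG13 and to 19.4 to 56.1 with DMSO, with 3 of 6 tested called higher and 1 lower at day 2 and 5 higher at day 4. The pluripotency genes Pou5f1, Sox2 and Nanog summed to 670 to 834 against 1181 to 1610. Of 6 tested germ cell markers, 1 was called higher (Tfap2c) and 2 lower (Prdm1 and Prdm14) on each day, against 33.6% and 41.8% of all genes called. Tfap2c was at 104 and 90.9 with DMSO and at 158 and 157 with dTAG13 at day 2, and at 59.8 and 51.8 against 183 and 204 at day 4. Prdm1 was at 51.2 and 46.4 against 20.7 and 22.7 at day 2 and at 49.8 and 39.4 against 16.4 and 10.97 at day 4. Prdm14 was at 36.5 and 34.6 against 9.48 and 8.29 and at 48.97 and 44.2 against 13.1 and 7.95. Their sum therefore hides opposite changes. Mesoderm markers (5 genes) summed to 29.4 to 39.3 against 11.4 to 16.5, extraembryonic endoderm markers (6 genes) to 8.08 to 14.7 against 6.67 to 10.2, and mesenchyme markers (5 genes) to 4.11 to 5.28 against 2.04 to 3.19. Of these, 1 of 2 tested mesoderm markers was called higher on each day, 1 of 3 endoderm markers was higher on each day and 1 lower at day 2, and 0 of 2 mesenchyme markers were called by limma on either day (1 on each day at an unadjusted p under 0.05). The mesoderm sum rose through Hand1, at 4.28 and 7.33 with DMSO and at 22.4 and 31.6 with dTAG13 at day 2. At day 4 Hand1 was at 2.04 and 2.79 against 15.7 and 24.5. Eomes overlapped between DMSO and dTAG13 on both days (5.16 to 6.16 against 5.91 to 7.09, and 12.3 to 13.9 against 11.8 to 13.5). T, Mixl1 and Mesp1 were under the filter. The higher endoderm marker, Gata6, passed the filter only through the dTAG13 libraries (3.61 to 7.48, against 0 to 1.09 with DMSO and in EpiLCs). The part of all these measures in the collagen changes was not tested.

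The genes that fold, modify and bind collagen were not moved in 1 direction by dTAG13. Of 58 tested partners in 7 lists, 31 (53.4%) were called at day 2 (19 higher, 12 lower) and 35 (60.3%) at day 4 (19 higher, 16 lower), against 33.6% and 41.8% of all genes. Among 17 folding and modification genes, 5 were higher and 4 lower at day 2, and 4 higher and 8 lower at day 4. Plod2, a lysyl hydroxylase of collagen ends, and Fkbp10, a prolyl isomerase that works with it, had the largest increases (1.60 and 1.35 at day 2, 1.88 and 1.87 at day 4). The collagen chaperone Serpinh1 also rose (0.92 and 0.96). The prolyl hydroxylase complex member Crtap and the galactosyltransferase Colgalt1 fell (-0.52 and -0.59 at day 2, -0.86 and -0.87 at day 4), and so did Plod1 at day 4 (-1.39).

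Of 13 tested basement membrane partners, 7 were higher and 3 lower on each day (76.9% called, against 33.6% of all genes at day 2 and 41.8% at day 4). The 13 and the 7 include the laminin chain Lamb3, which passed the filter only through the dTAG13 libraries, and so do the counts over all partners. The proteoglycan Hspg2 was at 212.8 and 209.8 with DMSO and 430.5 and 458.4 with dTAG13 at day 2 and at 198.6 and 282.4 against 618.6 and 632.5 at day 4. The collagen-binding Sparc (1.07 and 1.498) also rose. Lamb3 was at 4.35 to 6.04 with dTAG13 and at 0.111 to 1.22 in the DMSO and EpiLC libraries, given as a description. The linker proteins Nid1 (-0.98 and -1.96) and Nid2 (-0.62 and -0.48) fell, and so did the laminin chain Lama1 at day 2 (-1.26). The collagen receptors Ddr1 and Ddr2 went opposite ways: Ddr1 rose by 1.79 and 2.76 and Ddr2 changed by -1.90 and -2.80. Of 9 processing and cross-linking genes, of which 33.3% were called at day 2, close to the share of all genes, Bmp1, the protease that trims fibrillar procollagens, rose by 2.54 and 2.50, while Adamts14 (-1.36 and -1.95), which trims the other end, and Pcolce2 (-0.66 and -1.49) fell. Of 7 turnover genes, 3 rose at day 2 (Mmp9, Mmp2 and Mmp14), and 3 rose and 1 fell at day 4 (42.9% and 57.1% called, near the shares of all genes at day 2 and somewhat above at day 4). Of 5 tested other matrix genes (40% called on each day, near the shares of all genes), Thbs1 rose by 2.54 and 3.90 and Fn1, encoding fibronectin, fell (-0.95 and -1.05).

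Along PGCLC induction without dTAG13, Col9a2, Col18a1 and Col6a5 were called in the same direction in the degron cells and the vector lines at the first step. From EpiLC to day 2, 8 of 22 tested collagens were called in the degron cells (5 higher and 3 lower), against 26.2% of all genes (11.5% higher and 14.7% lower). In the vector lines 9 of 16 were called (2 higher and 7 lower), against 46.3% of all genes (24.1% higher and 22.1% lower). Without Col17a1, which passed the filter in the degron cells only through the DMSO libraries, the degron count was 7 of 21 (33.3%, 4 higher and 3 lower). Without Col5a2, which passed in the vector lines only through the EpiLCs, the vector count was 8 of 15 (53.3%, 2 higher and 6 lower). Col9a2 rose in both, from 1.01 and 1.22 to 8.43 and 7.06 in degron cells and from 2.40 to 6.46 in the empty-vector line. Both clones rose likewise, from 1.49 and 1.37 to 7.70 and 7.87 (2.04 ± 0.35 and 1.61 ± 0.28 on the log2 scale, limma adjusted p = 0.000134 and 1.91e-05). Col18a1 and Col6a5 fell in both. Col18a1 was at 564 and 590 in degron EpiLCs and at 377 and 354 at day 2, and across the vector lines it was at 399.9 to 404 and then at 208 to 243. Col6a5 was at 18.4 and 15.8 and then at 6.67 and 4.34, and in the vector lines at 12.8 to 21.0 and then at 1.82 to 5.75 (-1.497 and -2.07, limma adjusted p = 0.000113 and 2.98e-08). Col5a2, a partner chain of type V collagen, was at 7.73 and 2.66 in degron EpiLCs and at 0.880 and 1.22 at day 2 (-1.47, limma adjusted p = 0.00979). That call was lost in 4 of 11 alternatives (adjusted p up to 0.232), including without EpiLC replicate 1 (-0.84) or day 2 DMSO replicate 1 (-1.35). In the vector lines Col5a2 had a mean of 4.10 in the EpiLCs and 0.318 over the 9 other libraries. Its vector day 2 values rest on 2, 2 and 0 reads, under the floor of 3 reads, so its fitted -2.004 is no bound and is not counted as the same change in both sets.

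In degron cells Col6a4 rose by 1.24 ± 0.23 (2.41 ± 0.36 to 7.04 ± 0.55, limma adjusted p = 0.000369), and Col20a1 and Col4a1 rose by 1.13 and 0.66. The Col20a1 call was lost in 5 of 11 alternatives (adjusted p up to 0.439), including without day 2 DMSO replicate 2 (0.565) or either EpiLC replicate (1.16 and 1.10), and without day 2 DMSO replicate 1 the value was 1.70. Col17a1 was at 0.254 and 0.776 in EpiLCs and at 1.76 and 1.76 at day 2, given as a description. Neither gene reached the mean of 1 in the vector lines, so they were not tested there. In the vector lines Col13a1 rose by 1.22, and Col8a2, Col2a1, Col5a1 and Col4a1 changed by -1.37, -1.20, -0.93 and -0.73. Col4a1 was thus called in opposite directions, but the degron call held in 5 of 11 alternatives (adjusted p up to 0.319, lost without EpiLC replicate 1, where it was 0.41, or either day 2 DMSO replicate) and the vector call in 9 of 13 (up to 0.168, lost without clone 1 at either stage, with -0.41 without clone 1 at day 2). It was at 3.68 and 5.65 in degron EpiLCs and at 7.17 and 8.55 at day 2, and went from 7.96, 5.96 and 5.91 to 6.61, 1.69 and 3.63 in the vector lines. The EpiLCs of the degron cells were untreated and the day 2 cells had DMSO, so DMSO cannot be told apart from the step there. The kits differed between the tables, so the kit cannot be told apart from a difference between the degron cells and the vector lines. Without the variance trend 5 collagens were called in the degron cells, with no filter 4, and without EpiLC replicate 1, 4. Without day 2 DMSO replicate 1 or 2 there were 5. In the authors' deposited table for the degron cells, 4 of all 44 collagens were higher (Col6a4, Col9a2, Col20a1 and Col26a1) and 1 lower (Col6a5) at day 2. Col26a1 was not tested here, and Col4a1, Col5a2, Col17a1 and Col18a1 were not among the authors' calls.

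Between day 2 and day 4, 4 of 22 collagens were called in the DMSO-treated degron cells, all lower, against 5.52% of all genes (2.44% higher and 3.08% lower). They were Col2a1 (-1.34 ± 0.26, limma adjusted p = 0.00242), Col6a5 (-0.97), Col6a4 (-0.91) and Col18a1 (-0.61). With no filter, without day 2 DMSO replicate 1, or without day 4 DMSO replicate 2, 2 were called. The lost calls were those of Col6a5 (-0.71 and -0.88 without these libraries, adjusted p = 0.309 and 0.107) and Col6a4 (-0.84 and -0.69, adjusted p = 0.165 and 0.172), and that of Col6a4 was also lost without day 2 DMSO replicate 2 (-0.98, adjusted p = 0.0904). In the vector lines 6 of 16 were called, against 23% of all genes (11.1% higher and 11.9% lower). Col4a2, Col1a1 and Col4a1 rose and stayed called in 13 of 13 alternatives, and Col8a2 and Col18a1 fell. The day 2 values of Col1a1 rest on 1, 7 and 3 reads in the empty-vector line, clone 1 and clone 2, the first being below the floor of 3 reads. Col5a1 was called higher (0.75, limma adjusted p = 0.0335), but lost the call in 8 of 13 alternatives (adjusted p up to 0.16), including no replicate block and leaving out day 2 empty vector (0.58), day 2 clone 1 (0.68), day 4 empty vector (0.59) or day 4 clone 2 (0.73). Col4a2 was at 5.603, 0.770 and 2.27 at day 2 in the empty-vector line, clone 1 and clone 2 and at 13.6, 5.18 and 6.53 at day 4 (1.39 ± 0.24, limma adjusted p = 0.000105). Col4a1 was at 6.61, 1.69 and 3.63 at day 2 and at 11.96, 8.86 and 6.72 at day 4 (1.13 ± 0.23, limma adjusted p = 0.00056). Each line was higher at day 4 for both genes. In the degron DMSO cells the day 4 values of Col4a1 and Col4a2 were also higher (13.3 and 12.05, 8.06 and 6.07) without passing the test. Col8a2, a network-forming collagen, fell from 6.03, 5.70 and 2.72 to 0.613, 0.334 and 0.187 (-2.03 ± 0.28, limma adjusted p = 3.18e-06), where the day 4 values rest on 4, 2 and 1 reads, those of the clones being below the floor of 3 reads.

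From day 4 to day 6 in the vector lines, 1 of 16 collagens was called, against 6.88% of all genes (3.49% higher and 3.38% lower). Col5a3 and Col26a1, neither of them called, passed the filter only through day 6 (2.41 and 1.64, against 0.834 and 0.955 over the 9 other libraries), and without them it was 1 of 14 (7.14%). Col4a1 rose to 24.1, 14.97 and 15.1 (0.90 ± 0.23, limma adjusted p = 0.0136), and Col4a2 was at 18.5, 10.3 and 10.05 at day 6. The Col4a1 call was kept in 4 of 13 alternatives and lost in 9 (adjusted p up to 0.116). It was lost without the line as covariate, the variance trend or the filter, under the fold threshold of 1, and without any 1 of day 4 empty vector, day 4 clone 2 and the 3 day 6 libraries (0.77 to 0.93). From EpiLC to day 2, 26 of 58 tested matrix partners were called in degron cells (44.8%, against 26.2% of all genes), 12 of them higher, and 30 of 57 in the vector lines (52.6%, against 46.3%), 19 of them higher. The tested partners include some that passed the filter only through the EpiLCs, among them Dcn in both sets and Thbs2 in the vector lines. Dcn was at 6.21 and 8.53 in degron EpiLCs and at 0 to 0.587 in the other degron libraries. In the vector lines it was at 3.71 to 4.66 in EpiLCs and at 0 at every later stage. These partner counts are therefore a description. From day 2 to day 4, 12 of 58 partners were called in degron cells (20.7%, against 5.52%), 5 of them higher, and 24 of 57 in the vector lines (42.1%, against 23%), 18 of them higher. From day 4 to day 6, 7 of 57 partners were called (12.3%, against 6.88%), 4 of them higher, and without day 6 empty vector, day 6 clone 1 or day 6 clone 2 there were 3 and without day 4 clone 2 there were 4. Without day 2 clone 1, 14 partners were called at the second of these steps in the vector lines. The mesoderm and endoderm markers were also called higher at day 4 than at day 2 in the vector lines (3 of 3 tested in each list). These counts include T (mesoderm) and Gata6 (endoderm), which passed the filter only through the day 4 libraries. The part of these markers in the collagen changes was not tested.

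**Figure D3:**
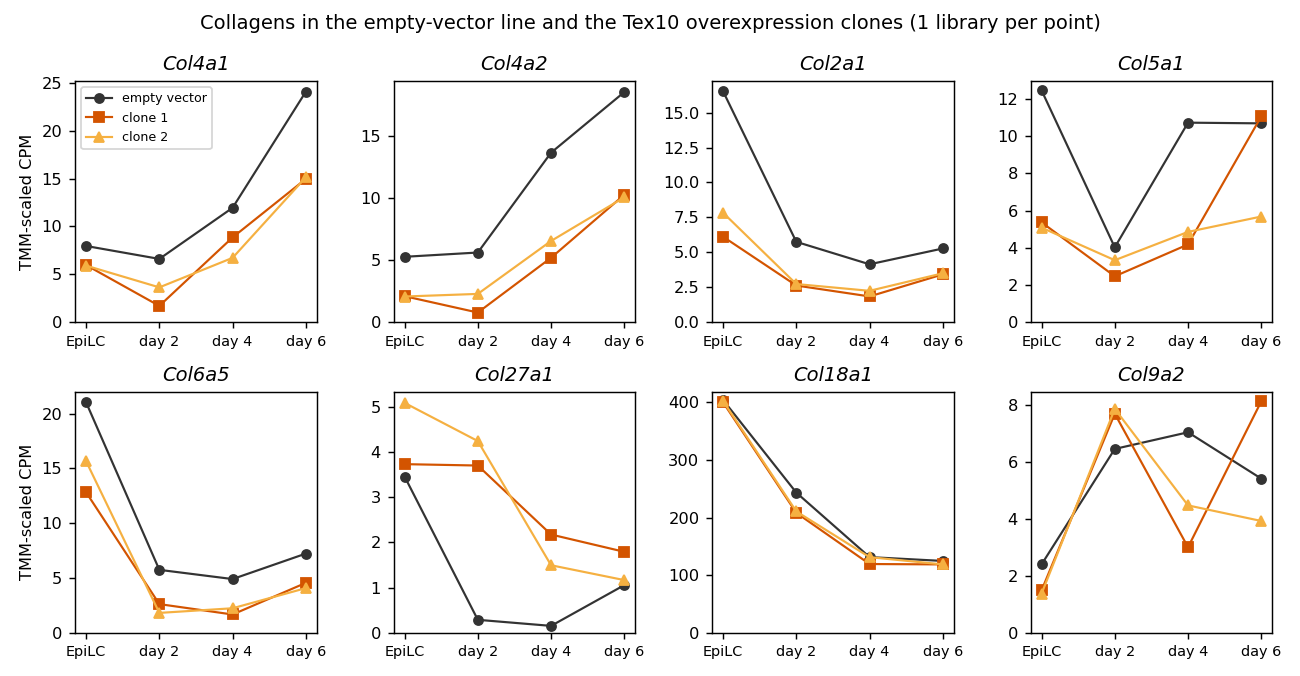
TMM-scaled CPM (linear axes from 0) of 8 collagens in the empty-vector line and both Tex10 overexpression clones over 4 stages, 1 library per point. The clones lie below the empty-vector line for Col4a1, Col4a2, Col2a1 and Col6a5 at all stages and above it for Col27a1, while Col18a1 falls alike in all lines.

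In the Tex10 overexpression clones, 6 of 16 tested collagens were called against the empty-vector line over all stages, 1 higher and 5 lower. Of all genes, 8.76% were called (4.54% higher and 4.22% lower). The collagen median was -0.25 and that of all tested genes 0.01. Of those not called, Col5a2 passed the filter only through the clones (1.48, against 0.825 in the empty-vector line) and Col26a1 only through the empty-vector line (1.58, against 0.901). Without these, 6 of 14 were called and the median was -0.249. There was 1 empty-vector line, so variation among control lines was not measured, and the error comes from the stages and clones. Without clone 1, or without clone 2, 3 collagens were called, and Col4a2 alone was called in every setting. In the authors' deposited table, where stages were compared singly, no stage had more than 1 collagen called in either direction.

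Col4a2 was at 5.26, 5.603, 13.6 and 18.5 in the empty-vector line from EpiLC to day 6. Clone 1 was at 2.09, 0.770, 5.18 and 10.3 and clone 2 at 2.06, 2.27, 6.53 and 10.05. Both clones were below the empty-vector line at every stage, with a log2 difference of -1.10 ± 0.19 (limma adjusted p = 0.00017). Col4a1 was at 7.96, 6.61, 11.96 and 24.1 in the empty-vector line. It was at 5.96, 1.69, 8.86 and 14.97 in clone 1 and at 5.91, 3.63, 6.72 and 15.1 in clone 2. It was also lower in 8 of 8 clone libraries (-0.67 ± 0.17, limma adjusted p = 0.0104). That call was lost in 6 of 20 alternatives (adjusted p up to 0.106), including without clone 1 (-0.62), clone 2 (-0.73) or day 2 empty vector (-0.53). The genes around the pair moved with it: of 9 other tested genes within 1000000 bases on chromosome 8, 8 were lower in the clones and 6 were called, with a median of -0.55. Their part in the Col4a1 and Col4a2 result was not tested. Around the other called collagens the medians of the neighbouring genes lay between -0.01 and 0.16.

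Col2a1 fell in the clones (-0.82 ± 0.18, limma adjusted p = 0.00312): it was at 16.5 in empty-vector EpiLCs and at 6.11 and 7.83 in those of the clones, and at 5.27 against 3.42 and 3.49 at day 6. Without clone 1 the Col2a1 call was lost (-0.75, adjusted p = 0.0569). Col6a5 was lower in 8 of 8 clone libraries (-0.81 ± 0.17, limma adjusted p = 0.00262), with 21.0 against 12.8 and 15.7 in EpiLCs. Col5a1 was lower in 7 of 8 (-0.74 ± 0.19, limma adjusted p = 0.0112), the exception being clone 1 at day 6 (11.1 against 10.7). The Col5a1 call was lost in 6 of 20 alternatives (adjusted p up to 0.108), including without clone 2 (-0.69), day 4 empty vector (-0.62) or EpiLC empty vector (-0.62). Col27a1 was the only called collagen that was higher (0.94 ± 0.24, limma adjusted p = 0.0125). Its difference was concentrated at days 2 and 4, where the empty-vector line was at 0.287 and 0.153, under the floor of 3 reads, and the clones were at 3.70 and 4.24 and at 2.17 and 1.49. At day 6 it was at 1.05 against 1.79 and 1.17. This call was lost in 7 of 20 alternatives (adjusted p up to 0.177), including without clone 1 (0.92), clone 2 (0.96), day 2 empty vector (0.60) or day 4 empty vector (0.82). Col18a1 was not called (-0.09, 95% interval -0.20 to 0.02).

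Of 57 tested partners, 1 was higher and 6 lower in the clones (12.3% called, near the 8.76% of all genes). Loxl2, a lysyl oxidase that cross-links collagen (-0.91), and the prolyl hydroxylase subunits P4ha2 (-0.78) and P4ha1 (-0.50) fell, and the procollagen protease enhancer Pcolce rose (0.47). Without the variance trend 3 partners were called, and without clone 2, or without day 4 empty vector, 4. None of the 12 tested basement membrane partners was called. Mesoderm markers (5 genes) summed to 14.7 in the empty-vector line against 7.86 and 12.3 in the clones at day 2, to 47.4 against 23.6 and 20.2 at day 4 and to 28.0 against 20.3 and 19.4 at day 6. In EpiLCs they summed to 43.7 against 38.9 and 46.0, so that the clones were lower at the 3 later stages. Of 3 tested mesoderm markers 1 was called lower (median log2 fold change -0.70), and so was 1 of 3 tested extraembryonic endoderm markers (median 0.09). The mesoderm markers include T, which passed the filter only through the empty-vector line (0.575 to 6.59, against 0 to 1.49 in the clones). The endoderm markers include Gata6, which passed only through the clones (0 to 3.73, against 0.150 to 1.53). Both medians are therefore a description. Genes detected at 5e+06 reads were 20562 to 21049 against 19503 to 20530. The part of these in the result was not tested. The clones and dTAG13 share no libraries, and Col4a1, Col4a2, Col2a1, Col6a5 and Col5a1 were lower in the clones and higher under dTAG13 on at least 1 day. The share of all genes that did so is not given, so this only names the genes. Col27a1 was higher in both.

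In testis, 15 of 37 tested collagens were called between cKO and wildtype, 12 higher and 3 lower in cKO, against 29.1% of all genes (16.1% higher and 13.1% lower). The median was 0.14 over collagens and 0.01 over all tested genes. The calls lay mostly in the fibrillar and basement membrane groups: 5 of 8 fibrillar and 5 of 6 basement membrane genes were called, and 5 of 23 others. In this bulk tissue, more cells of a type and more RNA per cell cannot be told apart. In every setting, 5 stayed called (Col1a1, Col1a2, Col3a1, Col4a1 and Col6a4). Without the variance trend 5 were called, and without cKO replicate 1, 9. The authors' deposited table had the same 15 collagens at an FDR under 0.05, 12 higher and 3 lower.

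**Figure D4:**
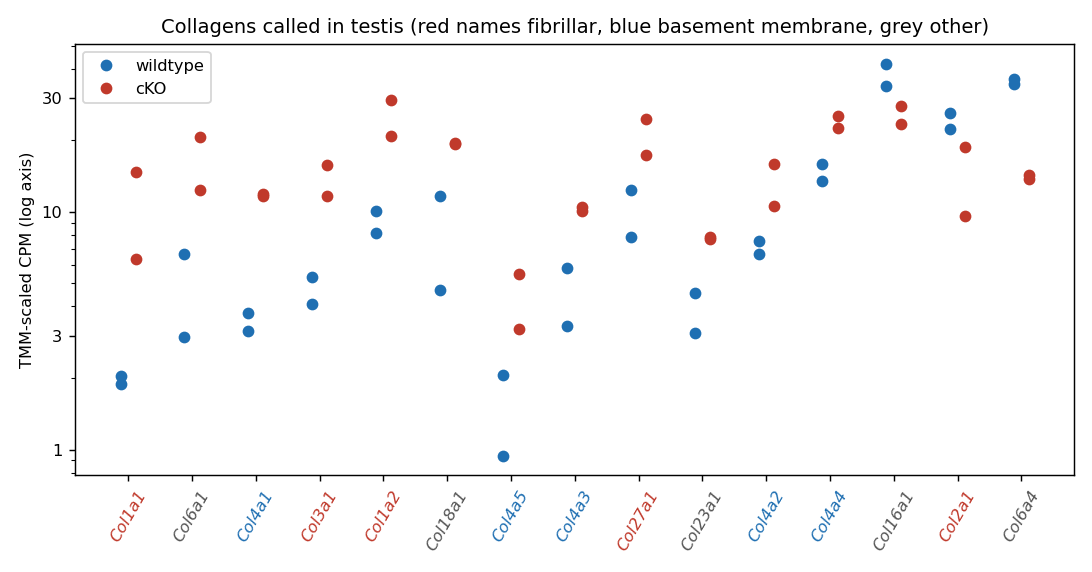
TMM-scaled CPM (log axis) of the 15 called collagens in 2 wildtype and 2 cKO testis libraries, ordered by log2 fold change. Col1a1, Col6a1 and Col4a1 lead the higher genes (1.86, 1.62 and 1.52), and Col16a1, Col2a1 and Col6a4 are lower in both cKO libraries.

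The genes of type I and III collagen, the chief fibril formers of soft tissue, rose together. Col1a1 was at 1.88 and 2.04 in wildtype and at 14.8 and 6.35 in cKO (1.86 ± 0.36, limma adjusted p = 0.00216). Col1a2 was at 10.1 and 8.16 against 29.5 and 20.8 (1.36 ± 0.23, limma adjusted p = 0.000859). Col3a1 was at 4.11 and 5.34 against 15.7 and 11.7 (1.36 ± 0.27, limma adjusted p = 0.00256). In each of these the cKO values lay above the wildtype values, and cKO replicate 1 was the higher of the pair. Around Col1a2, 8 of 14 other tested genes within 1000000 bases were higher and 6 were called, with a median of 0.71, and their part was not tested; around the 13 called testis collagens other than Col1a2 and Col4a5 the medians ran from -0.31 to 0.40. Col27a1 rose from 12.3 and 7.85 to 17.3 and 24.7 (1.00 ± 0.25, limma adjusted p = 0.0098), a call lost without cKO replicate 2 (0.75, adjusted p = 0.0849). Col2a1 fell, from 22.3 and 26.1 to 9.61 and 18.7 (-0.80 ± 0.26, limma adjusted p = 0.032). This rested on cKO replicate 1: without it the Col2a1 value was -0.35 and not called (adjusted p = 0.372), and without cKO replicate 2 it was -1.24. It was not called without wildtype replicate 2 either (-0.69, adjusted p = 0.0887). Col5a1 (0.33), Col11a1 (0.59) and Col11a2 (-0.08) were not called.

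All type IV genes but Col4a6 rose. Col4a1 was at 3.77 and 3.14 in wildtype and at 11.8 and 11.7 in cKO (1.52 ± 0.28, limma adjusted p = 0.00134), and Col4a2 was at 6.68 and 7.53 against 15.9 and 10.5 (0.79 ± 0.26, limma adjusted p = 0.0378). Col4a3 and Col4a4, also neighbours on opposite strands, were at 5.82 and 3.30 against 10.4 and 10.04 and at 15.9 and 13.5 against 25.2 and 22.5 (1.05 and 0.66, limma adjusted p = 0.017 and 0.0203). Col4a5 was at 2.05 and 0.942 against 3.20 and 5.46 (1.10, limma adjusted p = 0.0391). For each of these 5 genes, named because they were called, both cKO values lay above both wildtype values. How many of all genes did so is not given, so this is a description. Of the 5 calls, that of Col4a1 was kept without any 1 library. Col4a2 was not called without cKO replicate 1 (0.51, adjusted p = 0.369) or wildtype replicate 1 (0.71, adjusted p = 0.079). Col4a3 and Col4a4 were not called without cKO replicate 1 (1.03 and 0.58, adjusted p = 0.0769 and 0.146) or wildtype replicate 2 (0.72 and 0.55, adjusted p = 0.0984 and 0.082). Col4a5 was not called without cKO replicate 2 (0.79, adjusted p = 0.272) or wildtype replicate 2 (0.77, adjusted p = 0.182). Col4a6 was at 2.57 and 3.77 against 3.90 and 2.67 (0.04, 95% interval -0.69 to 0.77), which overlapped. Genes around some of these moved as well: of 12 other tested genes within 1000000 bases of Col4a5 on chromosome X, 11 were higher in cKO and 7 were called, with a median of 0.905, and around Col4a6 10 of 11 were higher and 4 called, with a median of 0.58. Around Col4a1 and Col4a2 the median was 0.07 and around Col4a3 and Col4a4 -0.31. The part of the neighbouring genes in the Col4a5 result was not tested.

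Of the other collagens, Col6a1 rose from 6.68 and 2.98 to 20.6 and 12.3 (1.62 ± 0.34, limma adjusted p = 0.00301), and its partners Col6a2 (0.61, adjusted p = 0.143) and Col6a3 (0.14) were not called. Col18a1 rose from 11.6 and 4.71 to 19.4 and 19.6 (1.27 ± 0.31, limma adjusted p = 0.00789), and by 0.69 without wildtype replicate 2. The transmembrane collagen Col23a1 rose from 3.08 and 4.55 to 7.66 and 7.88 (0.88, limma adjusted p = 0.0397), a call lost without either cKO replicate or wildtype replicate 1 (0.66 to 0.90, adjusted p up to 0.153). Col6a4, one of the higher collagens of wildtype testis, fell from 34.4 and 36.3 to 14.3 and 13.7 (-1.27 ± 0.18, limma adjusted p = 0.000253), where Gm36993 and Gm47575 overlap it on the other strand. Col16a1, a fibril-associated collagen, fell from 33.9 and 42.1 to 23.4 and 28.0 (-0.54 ± 0.17, limma adjusted p = 0.0297), a call lost without cKO replicate 1 (-0.42, adjusted p = 0.194) or wildtype replicate 2 (-0.39, adjusted p = 0.18). Among the 18 others not called, the values ran from -0.71 (Col14a1) to 0.61 (Col6a2).

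Among partners of collagen in testis, 32 of 70 tested were called (45.7%, against 29.1% of all genes), 30 higher and 2 lower, where 16.1% and 13.1% of all genes were: 10 of 16 folding genes, 7 of 15 basement membrane partners, 6 of 7 fibril-binding proteoglycans, 3 of 5 turnover genes and 2 of 9 receptors rose. Plod2 (1.84) and the matrix transcription factor Creb3l1 (1.67) led the folding genes, and Sparc (1.51) and the laminin chain Lama1 (1.44) the basement membrane partners. Dcn, a proteoglycan that coats fibrils and also served as a fibroblast marker, rose by 1.74 and Bgn by 1.28. Ddr1 (1.65) and Itgb1 (1.07) led the receptors and Timp2 (1.44) and Mmp14 (1.16) the turnover genes. Lamb3 (-0.99) and Tnc (-0.94) fell. Without the variance trend 20 partners were called, and without cKO replicate 1, 19.

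Markers of the somatic cells of testis moved in the same libraries. For comparison with the counts below, 29.1% of all tested genes were called (16.1% higher and 13.1% lower). All 9 Sertoli markers and all 7 Leydig markers were called higher, with sums of 484 and 554 in wildtype against 1303 and 1568 in cKO and of 290 and 393 against 688 and 1243. The Leydig markers include Lhcgr, which passed the filter only through the cKO libraries (11.4 and 5.46, against 0.685 and 0.942 in wildtype). Its part in the Leydig count is therefore a description. Fibroblast markers (4 of 7 called higher) summed to 32.7 and 39.6 against 86.3 and 131, and peritubular myoid markers (3 of 8 higher, 1 lower) to 135 and 168 against 201 and 206. Macrophage markers (3 of 5 tested higher) summed to 55.9 and 63.0 against 88.4 and 123. Spermatid markers (5 of 6 lower) summed to 17020 and 19420 against 12540 and 13040, and endothelial markers (1 of 5 higher, 2 lower) to 24.5 and 26.7 against 19.4 and 21.3. None of the listed markers was at 0 in all testis libraries, and 1 endothelial marker was not listed. The cKO library with the higher Col1a1, Col1a2 and Col6a1 also had the higher fibroblast, Leydig, Sertoli and macrophage sums, while Col27a1 and Col4a5 were higher in the other cKO library. Their part in the collagen changes was not tested.

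Col4a1 and Col4a2 could be followed in all 26 libraries. The Col4a1 value over the Col4a2 value ranged from 1.53 to 2.83 in degron libraries, from 0.876 to 2.87 in vector libraries and from 0.417 to 1.11 in testis. Among degron libraries both were highest in day 4 dTAG13 replicate 2 (41 and 22.1), and among vector libraries both were lowest in clone 1 at day 2 (1.69 and 0.770). Since their 5′ ends overlap on opposite strands, a small share of reads may have been assigned to either. Levels across the tables were scaled separately, so only the ratios within a library are compared between them.

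**Figure D5:**
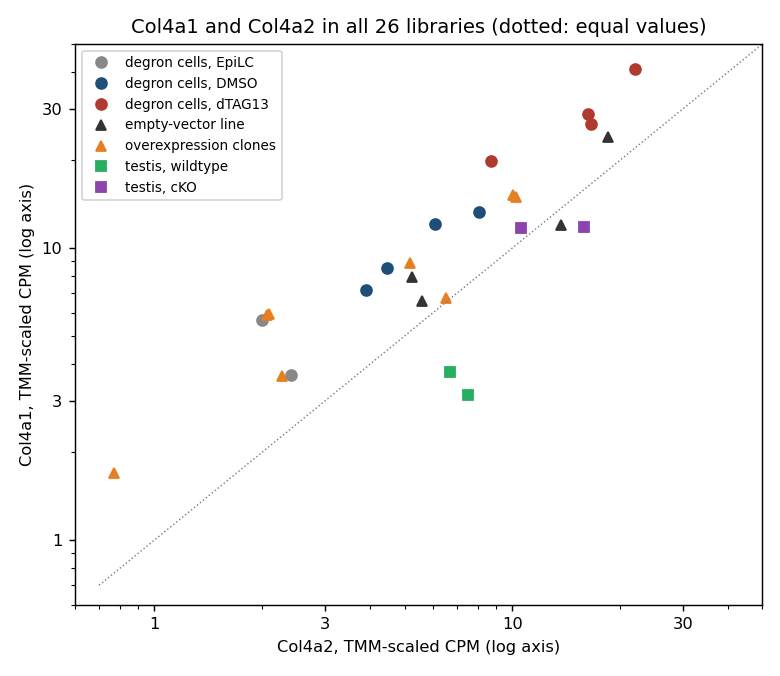
Col4a1 against Col4a2 in each of the 26 libraries (TMM-scaled CPM, log axes; dotted line, equal values). Degron libraries lie above the line at ratios of 1.53 to 2.83, and the wildtype testis libraries lie below it.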

How the data were processed

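RNA-seq libraries from 26 samples were read from 3 tables, grouped by their titles. Per the submitters' processing notes, Bowtie2 2.3.4.3, SAMtools 1.9, HTSeq 0.11.2 and edgeR 3.26.8 were used with mm10; their settings are not given in the sources used here. The deposited signal is a TMM-scaled CPM, and dividing each library by its step gave whole reads for 100% of values (tolerance 0.02). Those reads gave 12 and 13 collagen calls with edgeR for dTAG13 at days 2 and 4, and 15 in testis. The planned count test was replaced by limma because the values were not raw counts. The deposited log2 fold changes and p-values of the authors' comparisons, per the file headers, were used to count and name collagens at an FDR under 0.05.

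Genes with a mean of at least 1 were tested with limma 3.58.1 (R 4.3.3, mean-variance trend) on log2(value + 1), with all libraries of a table in each fit, no block for the degron and testis tables, stage as covariate for overexpression and line for the stage steps. P-values were adjusted by Benjamini-Hochberg over all tested genes (16605, 15255 and 20658). Alternatives were a pseudocount of 0.1, no filter, median-ratio scaling, no variance trend, an absolute log2 change of at least 1, edgeR 4.0.16 on recovered reads, a replicate block and leaving out replicates. The scripts were tested on simulated data. Exon lengths and overlaps came from the GENCODE annotation of GRCm38, promoters from RefSeq.

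Text names Tex10, the fibrillar and type IV genes with a mean of at least 1, up to 6 other called collagens per direction and comparison, and up to 2 called partners per list and direction; Serpinh1, Hspg2, Sparc, Nid2 and others listed beside a count were named after their values were seen. The members and lists were chosen with earlier results of these data known.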

Additional observations from a re-analysis of the deposited data

Results flagged for a closer look

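From EpiLC to day 2, Col4a1 and Col2a1 differed in direction between the degron cells and the vector lines, with both degron libraries of day 2 above both EpiLC libraries and each vector line lower at day 2 than as EpiLCs. The log2 fold change of Col4a1 was 0.66 in the degron cells and -0.73 in the vector lines; these calls were lost in 6 of 11 and 4 of 13 alternatives (adjusted p up to 0.319 and 0.168, by limma or edgeR). That of Col2a1 was 0.076, which did not pass the test, and -1.20. The difference between the sets was not tested, since they were scaled separately, and they also differ by library kit and by DMSO at day 2.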

How the results depend on the processing

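No called collagen or partner changed direction under any alternative run; 2194 of the single-gene values kept their side of the threshold and 401 lost the call. With an absolute log2 change of at least 1, collagens called were 5 and 1 for the first and second step in degron cells, 1 for overexpression, 0 from day 4 to day 6 and 9 in testis; partners were 17 and 20 for dTAG13 at days 2 and 4, 0 for the difference between days, 15 and 6 for the degron steps, 0 for overexpression, 15, 7 and 0 for the vector steps and 21 in testis. Without the variance trend, collagens were 5 for EpiLC to day 2 in degron cells, 3 for overexpression, 0 from day 4 to day 6 and 5 in testis, and partners 0 for the difference between days, 3, 2 and 20. With no filter, collagens were 4 and 2 for the degron steps, and partners 0 for the difference between days and 3 from day 4 to day 6. From day 4 to day 6, 2 collagens were called with a pseudocount of 0.1 and by edgeR, and 0 with no replicate block (partners 3). Leaving out a replicate gave 8 to 11 collagens for dTAG13 at day 2, 9 to 13 at day 4, 0 to 1 for the difference between days, 4 to 6 and 2 to 4 for the degron steps, 3 to 6 for overexpression, 8 to 10, 5 to 6 and 0 to 1 for the vector steps and 9 to 14 in testis. For partners it gave 26 to 29, 30 to 33, 0 to 5, 19 to 23, 8 to 18, 4 to 9, 27 to 32, 14 to 22, 3 to 7 and 19 to 28. A replicate block gave 13 collagens at each dTAG13 day, 8 and 4 for the degron steps and 16 in testis. In testis 34.8% of all genes were called with the block and 29.1% without it. Without the line block the vector steps gave 8, 5 and 0. The differences between same-numbered libraries were correlated at -0.07 to 0.12 over 2 pairs. With so few pairs this cannot decide whether the numbers are a pairing, which the sources used here do not give. For overexpression the clones were compared with the empty vector within stage. Beyond this matching by stage no pairing was made, because the empty-vector line has no clone number that would pair it with 1 clone. Depth limits the low members: a value of 3 reads lies between 0.299 and 0.56, depending on the library.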

Other observations

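Collagens under the filter carry a few values that stand out in the dTAG13 libraries. Col16a1 was at 1.55 and 2.41 at day 2 and at 1.17 and 1.59 at day 4 with dTAG13, and at 0.252, 0, 0 and 0.199 with DMSO. Col4a5 was at 1.24, 0.936, 0.880 and 0.795 with dTAG13 and at 0.299 or below with DMSO. Col26a1 went the other way at day 2, at 1.76 and 1.76 with DMSO and at 0.155 and 0.268 with dTAG13. Col15a1 was at 0.777 and 1.34 with dTAG13 and at 0 and 0 with DMSO at day 2, and at 0.440 and 0.636 against 0.215 and 0.797 at day 4. All 4 were under the filter. When every gene was kept, 16 of 44 collagens were called at day 2 and 13 at day 4, against 11.8% and 16.3% of all genes. In the authors' deposited table Col16a1 was higher on both days and Col4a5 and Col15a1 at day 2, and Col26a1 was lower at day 2.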
